A study of Mus musculus with 8 samples.

Results

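The genes described here are p53 and 31 of its direct transcriptional targets, followed in mouse embryonic stem cells in which either p53 or topoisomerase 1 (Top1) had been knocked down in a minority of the cells. The set was a list of 32 gene symbols, and its members were the probe sets that the array's platform annotation assigns to those symbols. Of the 32 genes, 31 had probe sets named for 1 gene, 60 probe sets in all out of 45101 on the array. Of these 31 genes, 30 were bright enough to be tested, among 14267 genes tested out of 18194 named. The other member, Fas, a death receptor, lay below the limit on dim signals, with values from 3.09 to 71.4 over the 8 arrays. Expression of the p53 gene itself (Trp53) was not analysed here, because no probe set is named for it in the annotation used, so the knockdown of p53 could not be checked on its own transcript.

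The embryonic stem cells were of the strain 129X1 x 129S1 and were kept under standard conditions for such cells. Cells carrying a short hairpin against Top1 (shTop1) or p53 (shp53) were combined with mock cells, 1 part to 4 parts. In the cocultures both kinds of cell shared a dish for 4 days. In the mixes, which served as controls, each kind was grown by itself for 4 days and the RNAs were pooled in the same proportion, which sets the knocked-down cells' input to 20% of the RNA. This gave a mix and a coculture for each hairpin, 4 groups with 2 Affymetrix arrays apiece. The labels call these biological replicates and do not say whether they came from separate thaws or passages, so a p-value measures only the spread between these samples. The mock cells are in all 4 groups, no group holds mock cells alone, and the labels do not say how many clones each hairpin line represents. The design asks what changes when cells are cultured together, beyond what pooling their RNA would give.

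p53 is a transcription factor that is kept scarce in unstressed cells and accumulates after DNA damage and other stresses. It binds a paired element, each copy a decamer, in or near the promoters of its targets, which stop the cell cycle, repair DNA or trigger cell death, and several targets act back on p53 itself. Embryonic stem cells hold abundant p53, and p53 in these cells is also known for promoting differentiation and for its part in competition between neighbouring cells.

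The p53 element was searched in promoter windows from RefSeq (build GRCm38.p6), each 300 bases long with 250 before and 50 after a transcription start, for the consensus decamer and for pairs of it up to 13 bases apart; the decamer's consensus reads alike on both strands. Of the 31 genes with probe sets, 24 had a window, 30 windows in all. At least 1 exact decamer lay in the windows of 10 of them (Aen, Ccng1, Cdkn1a, Ckap2, Ei24, Gadd45a, Mdm2, Pml, Polk and Ppm1d), which is 41.7% of the members with a window, against 9.55% of all genes with one. Counted by window it was 11 of 30 (36.7%), since the same decamer of Aen lies in both of its overlapping windows, against 8.36% of all 32851 windows. An exact pair was found in 1 member, Cdkn1a, and in 0.0731% of all windows. The best pair was 1 base from the consensus in Ccng1, Pml and Polk, and at most 1 base from it in 1.09% of all windows. Rrm2b, Perp, Tnfrsf10b, Ddb2, Trp53inp1, Zmat3 and Xpc were without a window. The 250 bases before the start are printed below for 4 genes, chosen because Cdkn1a and Plk3 had the largest coculture differences and differ in whether the element is present, Ccng1 holds a near-exact pair, and Ppm1d had the largest difference between the hairpins in the mixes. Capitals mark the exact decamers in Cdkn1a and Ppm1d and the near-exact pair in Ccng1. In Plk3 no exact decamer was found in this window, which says nothing about sites elsewhere in the gene. The stretches are chr17:29090729-29090978 on the plus strand for Cdkn1a, chr4:117133964-117134213 on the minus strand for Plk3, chr11:40755287-40755536 on the minus strand for Ccng1, and chr11:85311004-85311253 on the plus strand for Ppm1d.
Cdkn1a: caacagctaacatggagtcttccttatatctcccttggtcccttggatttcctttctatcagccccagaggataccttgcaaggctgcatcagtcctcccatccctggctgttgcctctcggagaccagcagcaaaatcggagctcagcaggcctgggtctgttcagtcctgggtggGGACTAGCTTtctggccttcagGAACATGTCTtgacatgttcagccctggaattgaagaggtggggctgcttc
Plk3: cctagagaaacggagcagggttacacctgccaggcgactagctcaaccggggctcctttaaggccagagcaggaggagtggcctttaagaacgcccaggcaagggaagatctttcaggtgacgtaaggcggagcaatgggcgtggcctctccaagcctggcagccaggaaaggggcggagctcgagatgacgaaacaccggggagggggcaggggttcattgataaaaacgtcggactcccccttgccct
Ccng1: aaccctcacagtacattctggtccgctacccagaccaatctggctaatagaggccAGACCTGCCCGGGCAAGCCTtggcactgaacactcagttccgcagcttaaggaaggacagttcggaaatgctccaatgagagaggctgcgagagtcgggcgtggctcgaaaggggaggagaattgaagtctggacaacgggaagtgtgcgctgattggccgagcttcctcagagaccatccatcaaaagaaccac
Ppm1d: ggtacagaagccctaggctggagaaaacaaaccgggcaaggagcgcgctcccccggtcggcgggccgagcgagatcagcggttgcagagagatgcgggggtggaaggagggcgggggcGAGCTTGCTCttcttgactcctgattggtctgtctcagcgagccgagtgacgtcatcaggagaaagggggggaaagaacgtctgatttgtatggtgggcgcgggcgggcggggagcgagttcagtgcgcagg
In Cdkn1a the marked pair spans positions -73 to -42 from the upstream of 2 starts, with 12 bases between the decamers. The window of the other start held no exact decamer. Directly after the downstream decamer lies a stretch that departs from the consensus only at its first base. It is unmarked, since only the best-matching pair of a window was kept. In Ccng1 the pair spans -195 to -176 with no bases between its decamers. These are matches of letters, not measured binding.

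On the arrays as a whole, the mean deposited signal was 812 to 896. The replicate 1 array of the shTop1 coculture stood apart on the second principal component, at 32.6 against -15.5 to 3.63 for the other arrays, an axis that held 16.9% of the variance. Embryonic stem cell markers matched the label: 10 of 10 were above the limit on dim signals, and their summed signal was 115299 to 117819 in the mixes and 111554 to 119315 in the cocultures. In coculture against mix on the log2 scale, 6 of these 10 markers were above 0 (55.3% of all genes) and 4 below, with a median of 0.06. They ran from -0.29 for Sox2 and -0.28 for Zfp42 to 0.20 for Nanog. Among fibroblast markers 5 of 10 were above the limit on dim signals, with Col3a1, Twist2, Postn, Lum and Dcn below. Their summed signal was 749 to 947 in the mixes and 896 to 1018 in the cocultures. Of the 5 tested, 4 were above 0 in coculture against mix and 1 below, with a median of 0.30 against 0.02 over all genes. They ran from -0.32 for Acta2 to 0.35 for Thy1 and 0.39 for Col1a2. Primitive endoderm markers, 7 of 7 above the limit, summed to 10794 to 11041 in the mixes and 11083 to 12418 in the cocultures, without overlap. Taken singly, 0 of the 7 had all cocultures above all mixes (5.75% of all genes). Their log2 differences ran from 0.01 for Gata4 to 0.27 for Foxa2. Trophectoderm markers were above it in 4 of 6 genes, Gata3 and Elf5 being below, and summed to 1050 to 1498 in the mixes and 1185 to 1490 in the cocultures. The part of these cells in the results below was not tested. Top1 itself had a signal of 5110 and 5316 in the shTop1 mixes, 5281 and 5283 in the shTop1 cocultures, 5456 and 5682 in the shp53 mixes and 5572 and 5886 in the shp53 cocultures. The shp53 arrays thus lay above all shTop1 arrays for Top1, by 0.11 ± 0.07 (SE, log2 scale; limma, adjusted p = 0.999).

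The first comparison set coculture against mix, averaged over both knockdowns. In it, Cdkn1a and Plk3, which act on the cell cycle, and Xpc, a repair gene, gave the highest values, at 1.36-fold, 1.25-fold and 1.23-fold higher in coculture. Most other targets differed little, 25 of the 30 by less than 0.2 on the log2 scale. None of the 30 passed the threshold of 0.05 after Benjamini-Hochberg adjustment in limma's fit across all genes, and neither did any of the 14267 genes (0% called). The smallest adjusted p among the members was 0.333, and among all genes 0.279. At an unadjusted p under 0.05, 3 of 30 members were higher (10%, against 7.09% of all genes) and 0 were lower (4.63% of all genes). All log2 differences are on the scale log2(signal + 16), which understates those of dim genes. Since whole dishes were measured, fewer cells of a kind and less RNA per cell cannot be told apart, and the share of knocked-down cells left after coculture is not given in the labels.

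**Figure D1:**
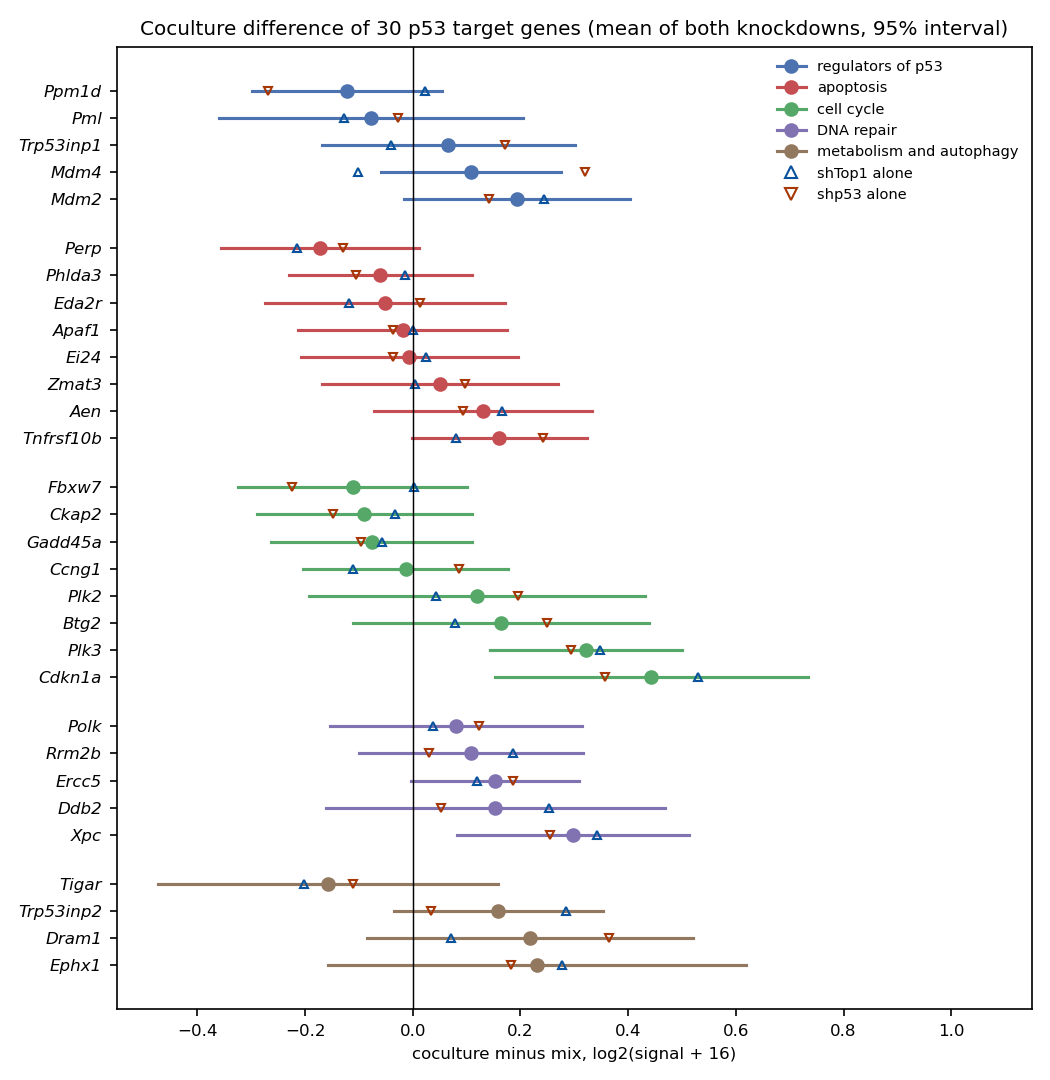
Coculture minus mix for the 30 tested p53 targets, grouped by role, as log2(signal + 16) on the horizontal axis. Filled circles are the mean of both knockdowns with its 95% interval over 8 arrays, and triangles give each knockdown alone. The intervals of Cdkn1a, Plk3 and Xpc lie wholly above 0, and no gene passed the threshold after adjustment.

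Among the cell cycle targets, Cdkn1a, which encodes the cyclin-dependent kinase inhibitor p21, gave signals of 1461 and 1581 in the shTop1 mixes and 1908 and 2539 in the shTop1 cocultures. In the shp53 samples it gave 1910 and 1880 in the mixes and 2670 and 2213 in the cocultures. Every coculture exceeded both mixes of its own knockdown, but the lower shTop1 coculture lay just under the higher shp53 mix. The difference averaged over knockdowns was 0.44 ± 0.12 (SE, log2 scale; limma, adjusted p = 0.345). A second probe set for Cdkn1a read 507 and 591 in the shTop1 mixes, 828 and 924 in the shTop1 cocultures, 597 and 864 in the shp53 mixes, and 967 and 884 in the shp53 cocultures. It differed in the same direction, by 0.51.

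Plk3, a polo-like kinase that acts in the stress response, gave 341 and 307 in the shTop1 mixes, 404 and 429 in the shTop1 cocultures, 323 and 337 in the shp53 mixes, and 418 and 398 in the shp53 cocultures. All 4 cocultures lay above all 4 mixes. The difference was 0.32 ± 0.07 (SE, log2 scale; limma, adjusted p = 0.333), with closely similar values in the shTop1 samples (0.35) and the shp53 samples (0.29). The other 6 cell cycle genes ranged from -0.11 to 0.16. Btg2, an antiproliferative factor, differed by 0.16 (signals 1296 to 1763), and Plk2, another polo-like kinase, by 0.12 (1540 to 2195). Ccng1, the cyclin G1 gene with the near-exact pair, differed by -0.01, with signals of 7974 to 9240 and a direction that turned under both other scalings. Gadd45a, a growth arrest and DNA damage gene, differed by -0.08 (1478 to 1684). Ckap2, a spindle protein, differed by -0.09 (4596 to 5577), and Fbxw7, a ubiquitin ligase subunit that targets cyclin E, by -0.11 (904 to 1193). Of the 8 cell cycle genes, 4 were above 0 and 4 below, with a median of 0.05.

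**Figure D2:**
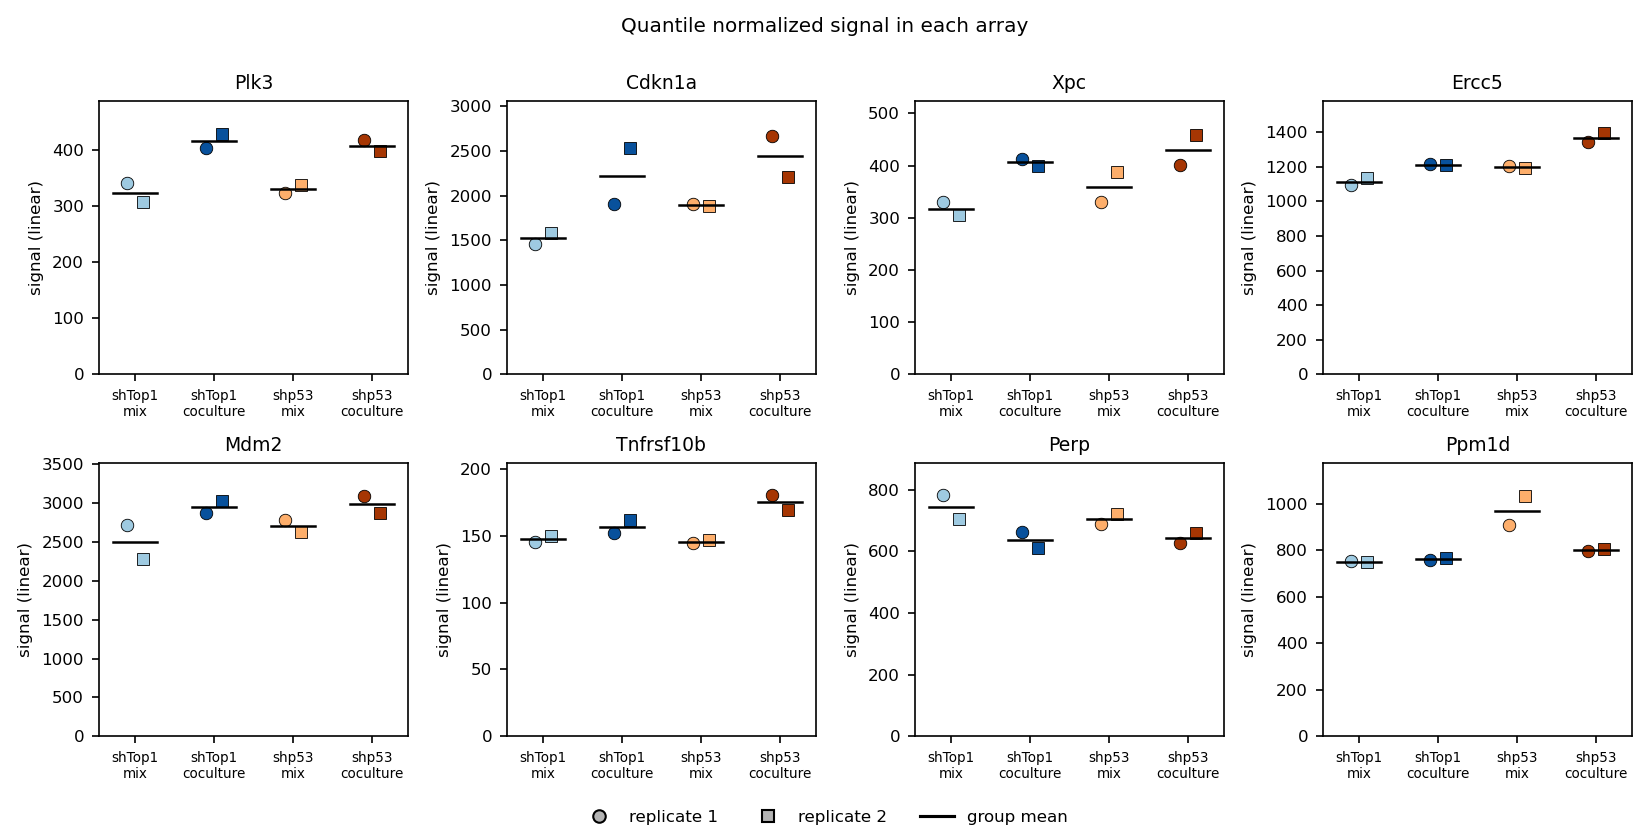
Quantile normalized signal (linear vertical axes from 0) of 8 p53 targets in each array, circles for replicate 1 and squares for replicate 2, with a bar at the mean of each group of 2. For Plk3, Xpc, Ercc5, Mdm2 and Tnfrsf10b all cocultures lie above all mixes, for Perp all lie below, and Ppm1d stands highest in the shp53 mixes.

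All 5 DNA repair targets were above 0 in the mean coculture comparison (55.3% of all genes), with a median of 0.15 against 0.02 over all genes. Only Xpc among them had an unadjusted p under 0.05 (limma). Xpc, the damage sensor of nucleotide excision repair, gave 330 and 305 in the shTop1 mixes, 413 and 400 in the shTop1 cocultures, 330 and 387 in the shp53 mixes, and 401 and 459 in the shp53 cocultures. The lowest coculture exceeded the highest mix, and the difference was 0.30 ± 0.09 (SE, log2 scale; limma, adjusted p = 0.357). Ercc5, the endonuclease that cuts on the 3' side of the lesion in the same pathway, gave 1095 and 1134 in the shTop1 mixes, 1216 and 1210 in the shTop1 cocultures, 1206 and 1196 in the shp53 mixes, and 1342 and 1395 in the shp53 cocultures. The groups again did not overlap, though the shTop1 cocultures stood only just above the shp53 mixes, and the difference was 0.15 ± 0.06 (SE; limma, adjusted p = 0.429). Ddb2, which recognises ultraviolet damage, differed by 0.15 (387 to 559). Rrm2b, the p53-inducible ribonucleotide reductase subunit, differed by 0.11 (288 to 363) and Polk, a translesion polymerase, by 0.08 (1099 to 1400). The last 2 turned negative, at -0.18 and -0.08, when all their probe sets were averaged. Rrm2b's second probe set differed by 0.08 (115 to 152). Its dim ones differed by -0.25 (15.2 to 42.4) and -0.66 (1.17 to 38.0). Polk's second probe set differed by -0.24 (137 to 238).

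Among the regulators of p53, Mdm2, the ubiquitin ligase that degrades p53 and is itself induced by it, gave 2715 and 2278 in the shTop1 mixes, 2875 and 3022 in the shTop1 cocultures, 2776 and 2621 in the shp53 mixes, and 3091 and 2870 in the shp53 cocultures. No coculture lay below any mix. The difference was 0.19 ± 0.09 (SE; limma, adjusted p = 0.452). In the second probe set of Mdm2 the groups overlapped. It differed by 0.06, and its lowest array was a coculture, at 1161. Trp53inp1, a stress-induced cofactor that promotes p53 phosphorylation, differed by 0.07 (8412 to 10750), and without replicate 1 of the shp53 coculture by -0.02. Pml, the scaffold of nuclear bodies, differed by -0.08 (803 to 1062). The values of Mdm4 (0.11) and Ppm1d (-0.12), the other inhibitors of the pathway, ran in opposite directions in the 2 knockdowns and are given below. Of the 5 regulators, 3 were above 0 and 2 below.

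Of the 8 apoptosis targets tested, 3 were above 0 and 5 below, with a median of -0.01. Tnfrsf10b, a death receptor for the ligand TRAIL, gave 145 and 150 in the shTop1 mixes, 152 and 161 in the shTop1 cocultures, 144 and 147 in the shp53 mixes, and 180 and 169 in the shp53 cocultures. All cocultures lay above all mixes, by 0.16 ± 0.07 (SE; limma, adjusted p = 0.428). The second probe set of Tnfrsf10b also differed by 0.16. Its shp53 coculture of replicate 2, at 59.8, lay below every mix (84.6 to 89.9). On the brightest probe sets, Perp, a membrane protein that takes part in p53-dependent death, was the only target whose cocultures all lay below its mixes. Its signals were 781 and 703 in the shTop1 mixes, 663 and 611 in the shTop1 cocultures, 687 and 721 in the shp53 mixes, and 625 and 660 in the shp53 cocultures. The difference was -0.17 ± 0.08 (SE; limma, adjusted p = 0.448). Aen, an apoptosis-enhancing nuclease, differed by 0.13 (2752 to 3328), and Zmat3, a zinc finger protein that binds RNA, by 0.05 (3229 to 3899). Further probe sets of Aen differed by 0.17, 0.19 and -0.44. In the last of these, all cocultures (111 to 148) lay below all mixes (151 to 202). The remaining 4 lay close to 0. They were Ei24, an endoplasmic reticulum protein (-0.01; 3781 to 4439), Apaf1, the apoptosome scaffold (-0.02; 1128 to 1279), Eda2r, a receptor for ectodysplasin A2 (-0.05; 1264 to 1549), and Phlda3, an inhibitor of Akt (-0.06; 1328 to 1482).

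Of the 4 metabolism and autophagy targets, 3 were above 0 and 1 below. Ephx1, microsomal epoxide hydrolase, differed by 0.23 (439 to 773), and Dram1, a lysosomal protein that promotes autophagy, by 0.22 (656 to 949). Trp53inp2, an autophagy factor, differed by 0.16 (597 to 759). Tigar, a phosphatase that lowers glycolytic flux, differed by -0.16 (434 to 620). Ephx1 had the widest replicate spread of the 30 members, an SD of 0.26 on the log2 scale, while the median member's SD was 0.10 against 0.17 for all genes.

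Counted over all 30, 18 targets were above 0 and 12 below, that is 60% above 0 against 55.3% of all genes, and their median was 0.09 against 0.02. In 5 targets (Mdm2, Plk3, Tnfrsf10b, Xpc and Ercc5) every coculture exceeded every mix, 16.7% against 5.75% of all genes. The reverse held for Perp alone, 3.33% against 3.35% of all genes. These counts use each gene's brightest probe set. They take no account of the targets' narrower replicate spread, a median SD of 0.10 against 0.17 for all genes. In the second probe sets of Mdm2 and Tnfrsf10b the groups overlapped, and a dimmer one of Aen had every coculture below every mix. Both knockdowns gave a value above 0 in 16 targets and below 0 in 6, and the other 8 differed in sign. The 95% intervals reached 0.16 to 0.39 to either side, with a median of 0.21, so differences smaller than this could not be told from 0 for a typical target.

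**Figure D3:**
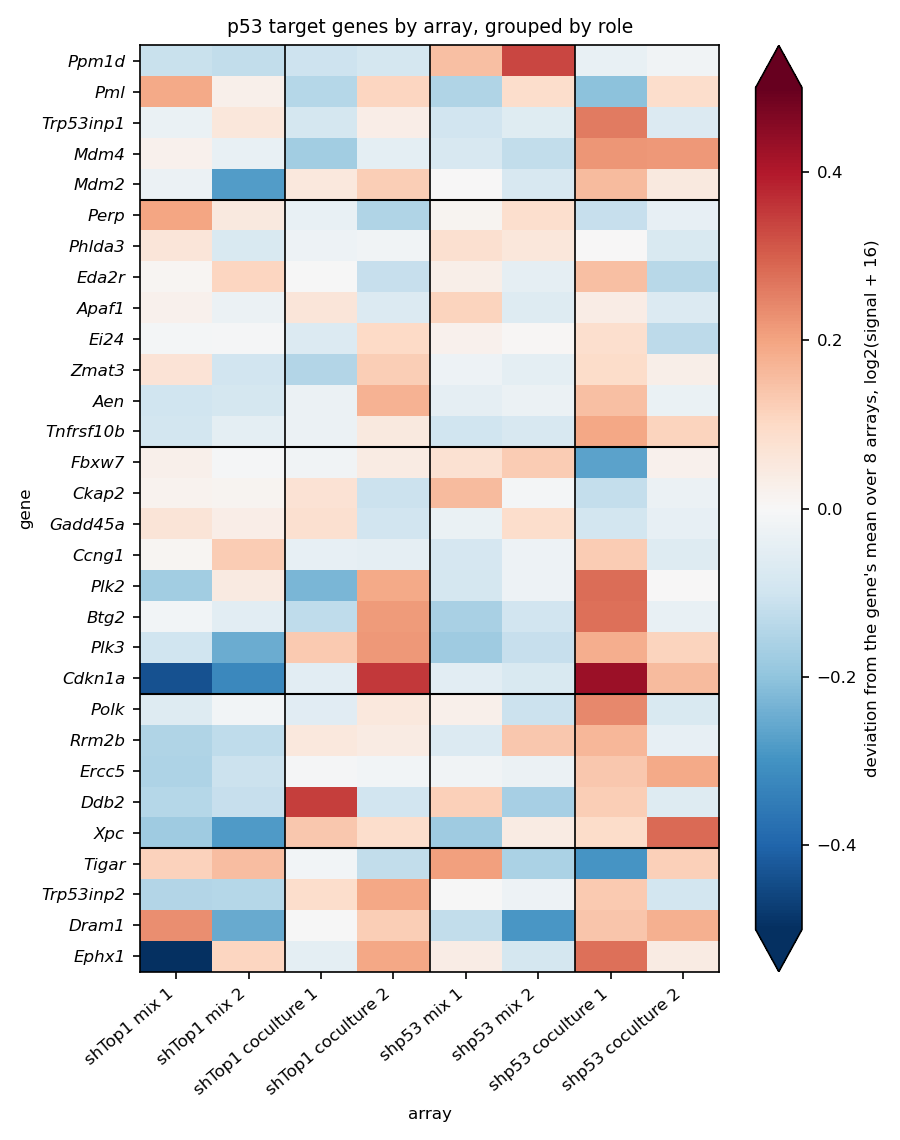
Each tested p53 target's deviation from its own mean over the 8 arrays, in log2(signal + 16), with blue below and red above the mean. Rows are genes grouped by role as in the plot of coculture differences, and columns are arrays. The shp53 coculture replicate 1 column is the reddest, with 23 of 30 targets above their mean.

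The targets' position in single arrays was uneven. In replicate 1 of the shp53 coculture, 23 of 30 targets were above their own mean, with a median deviation of 0.13, while in the other 7 arrays the median deviation was -0.04 to 0.04 and 9 to 18 targets were above their mean. Over all genes that array's median deviation was 0.01. Without this array, the median coculture difference of the targets was 0.04. Without replicate 2 of the shTop1 coculture it was also 0.04, and without replicate 2 of the shp53 coculture 0.14. Without replicate 1 of the shTop1 mix, 5 targets had an unadjusted p under 0.05 in place of 3.

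Within each knockdown, 20 of 30 targets were above 0 in the shTop1 samples (55.6% of all genes) and 20 in the shp53 samples (53% of all genes). With 2 arrays against 2, the cocultures lay wholly above the mixes for 11 targets in the shTop1 samples (36.7%, against 24.5% of all genes) and wholly below for 5 (16.7%, against 16.9%). In the shp53 samples these counts were 12 (40%, against 20.9% of all genes) and 6 (20%, against 17.1%). With the Top1 hairpin, the unadjusted p was under 0.05 for Plk3 (0.35), Cdkn1a (0.53), Xpc (0.34) and Trp53inp2 (0.28), all higher in coculture, which is 4 of 30 against 5.12% of all genes; 0 were lower, against 3.08%. The median over the targets was 0.03, as it was over all genes, and 0.10 without replicate 1 of the shTop1 coculture or 0.01 without replicate 2. With the p53 hairpin, Mdm4 (0.32), Plk3 (0.29) and Tnfrsf10b (0.24) were higher, 3 of 30 against 3.87% of all genes, and Ppm1d (-0.27) was lower, 1 of 30 against 2.99%. The median over the targets was 0.09 against 0.01 over all genes, but 0.0044 without replicate 1 of the shp53 coculture and 0.16 without replicate 2. No adjusted p was below 0.574 with the Top1 hairpin or below 0.711 with the p53 hairpin (limma).

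The difference between the 2 coculture effects was tested as an interaction. It ran from -0.29 for Ppm1d to 0.42 for Mdm4 over the 30 targets, 14 above 0 (48.5% of all genes). Mdm4 alone had an unadjusted p under 0.05, 1 of 30 higher against 1.68% of all genes and 0 lower against 2.63%, and every adjusted p among the targets rounded to 1.00 (limma). Mdm4 encodes a relative of Mdm2 that binds p53 and blocks its activity. Its brightest probe set gave 2792 and 2681 in the shTop1 mixes, 2440 and 2663 in the shTop1 cocultures, 2604 and 2528 in the shp53 mixes, and 3212 and 3198 in the shp53 cocultures. The shp53 cocultures were the highest of the 8 arrays, while the shTop1 cocultures were the lower pair of their knockdown. The coculture difference was 0.32 ± 0.10 with the p53 hairpin and -0.10 ± 0.10 with the Top1 hairpin (SE). In a second probe set for Mdm4 the shTop1 cocultures (320 and 337) again lay below the shTop1 mixes (365 and 401), at -0.21. Its shp53 cocultures, at 288 and 392, overlapped the shp53 mixes, at 375 and 291, with a difference of 0.02. Another, dimmer one also had the brightest one's signs. It was at -0.14 with the Top1 hairpin, where its arrays overlapped (60.0 and 87.0 against 63.4 and 64.7). With the p53 hairpin it was at 0.69 (29.96 and 62.1 against 73.4 and 87.9). The dimmest, at 10.8 to 66.4, was above 0 with both hairpins.

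Ppm1d encodes Wip1, a phosphatase that shuts off p53 signalling and is induced by p53. It gave 754 and 748 in the shTop1 mixes, 759 and 768 in the shTop1 cocultures, 908 and 1033 in the shp53 mixes, and 796 and 806 in the shp53 cocultures. The shp53 mixes stood above the other 6 arrays, which spanned 748 to 806. The coculture difference was -0.27 ± 0.10 with the p53 hairpin and 0.02 ± 0.10 with the Top1 hairpin (SE), and the difference between them, -0.29 ± 0.14, had an adjusted p of 1.00 (limma). A second probe set read 705 and 705 in the shTop1 mixes, 710 and 633 in the shTop1 cocultures, 638 and 646 in the shp53 mixes, and 591 and 590 in the shp53 cocultures. There the shp53 mixes were below the shTop1 mixes. Of the 17 targets with several probe sets above the limit on dim signals, 5 (Aen, Ccng1, Mdm4, Polk and Rrm2b) had probe sets that differed in sign in the mean coculture comparison.

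**Figure D4:**
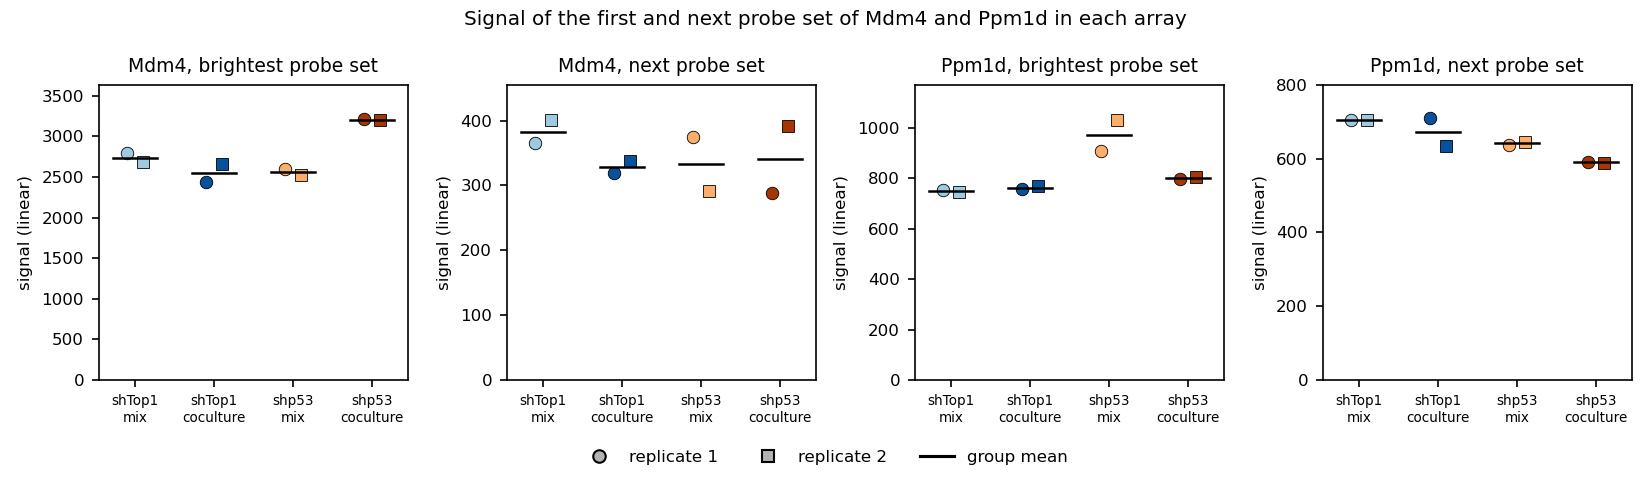
Signal (linear vertical axes from 0) of the brightest and the next probe set of Mdm4 and of Ppm1d in each array, circles for replicate 1, squares for replicate 2, bars for group means. The high shp53 cocultures of Mdm4 (3212 and 3198) and the high shp53 mixes of Ppm1d (908 and 1033) appear in the brightest probe set and not in the next one.

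The second comparison set shp53 against shTop1 samples, which asks whether p53 targets were lower where 20% of the input carried the p53 hairpin. As a group they did not stand lower. Averaged over mix and coculture, 20 of 30 targets were above 0 (66.7%, against 51.3% of all genes) and the median was 0.01, against 0.0036 over all genes, though with arrays centred on their medians the targets' median was -0.05, as was that of all genes. No target was called, and the smallest adjusted p was 0.999 (limma; 0% of all genes called). Of the 30, 1 was higher at an unadjusted p under 0.05 (3.33%, against 2.29% of all genes) and 0 were lower (2.4% of all genes). That target was Ppm1d, at 0.21 ± 0.07 (SE; adjusted p = 0.999, limma). Its 4 shp53 arrays all lay above its 4 shTop1 arrays, which held for no other target (1.07% of all genes), and the reverse held for 0 targets (1.02% of all genes). Its second probe set differed by -0.16. When 1 array was left out, 0 targets had an unadjusted p under 0.05 in 6 of 8 cases, 1 without replicate 1 of the shp53 mix and 2 without replicate 2 of the shTop1 coculture. Ppm1d's value was 0.03 when its probe sets were averaged. The 2 targets with the next smallest p were Ercc5, at 0.14 ± 0.06 (SE; adjusted p = 0.999), and Cdkn1a, at 0.23 ± 0.12 (SE; adjusted p = 0.999). Both were higher, not lower, in the samples with the p53 hairpin, though Ercc5's mixes gave -0.22 when its probe sets were averaged. The other probe set in that average, at 0.98 to 29.1, lay below the limit on dim signals.

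In the mixes the share of RNA is set by pooling. If the shp53 cells held no transcript of a target and all other cells held it equally, the target would stand at -0.32 (log2 of the remaining 80%) in the shp53 mix against the shTop1 mix, or between -0.32 and -0.29 on the scale used here. For 16 of 30 targets the 95% interval lay wholly above this level, as it did for 37.2% of all genes, among them Cdkn1a (0.32), Mdm2, Ppm1d (0.36), Plk3 (0.03), Xpc (0.16) and Ercc5 (0.11). For the other 14 the interval reached it, so that a complete loss in the knocked-down cells could not be told from no loss with these arrays. This reading takes the shTop1 mix as the reference, since mock cells were not measured alone, and a partial loss would give a smaller shift. The count of 16 also depends on how wide the intervals are. In the mixes the median SE was 0.12 for the targets and 0.16 for all genes, so the 2 shares are not alike in precision. In the mixes 17 targets were above 0 (52.4% of all genes) and 13 below, with a median of 0.02. At an unadjusted p under 0.05, 1 target, Ppm1d, was higher (2.2% of all genes) and 0 were lower (1.84%). The shp53 mixes lay wholly above the shTop1 mixes for 9 targets (18.3% of all genes) and wholly below for 4 (15.1%). In the cocultures 18 were above 0 (49.1% of all genes) and 12 below, with a median of 0.04, and Mdm4 at 0.33 was the 1 target higher at that level (2.17% of all genes), with 0 lower (2.61%). The shp53 cocultures lay wholly above the shTop1 cocultures for 5 targets (13.4% of all genes) and wholly below for 0 (14.3%). The mixes and cocultures enter both the hairpin and the coculture comparisons, so the high shp53 mixes of Ppm1d and the high shp53 cocultures of Mdm4 appear in each.

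**Figure D5:**
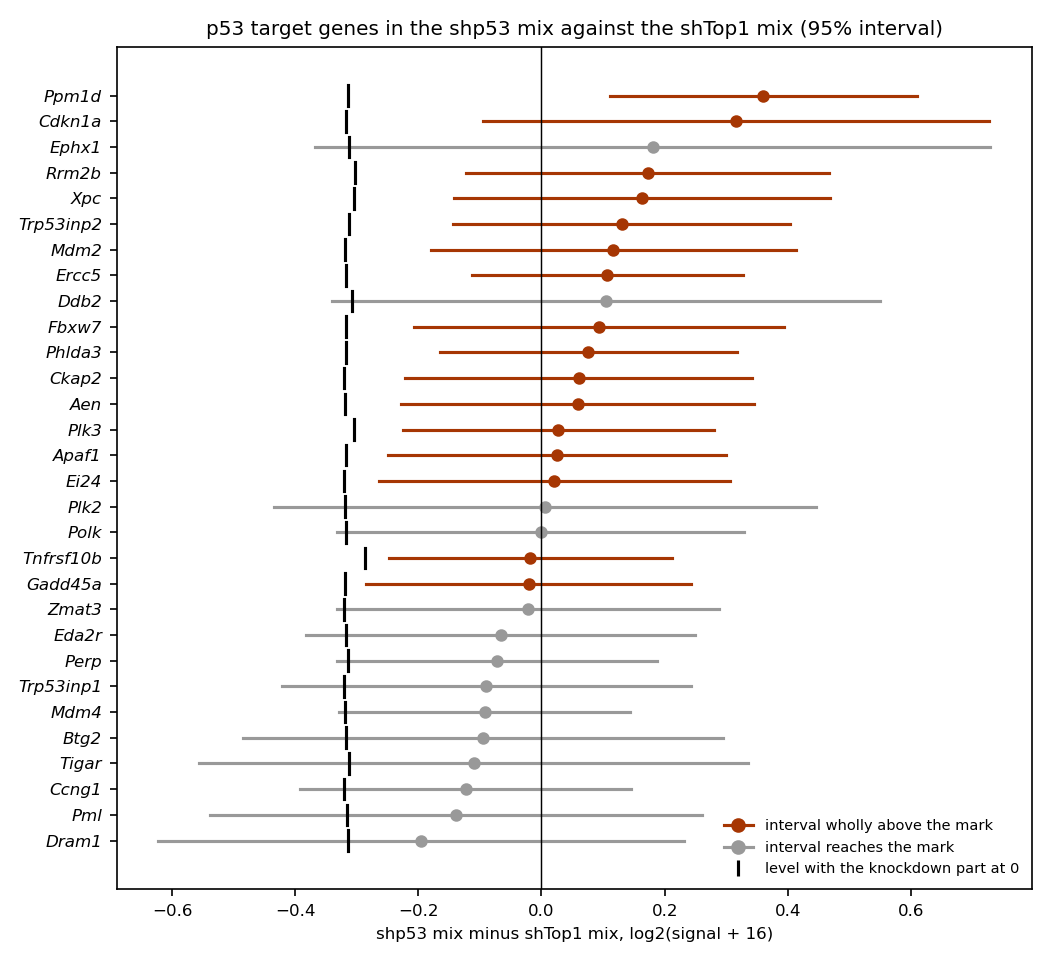
shp53 mix minus shTop1 mix for the 30 tested p53 targets, in log2(signal + 16), with 95% intervals. Short vertical marks show where each gene would stand if the shp53 cells held none of its transcript. Red intervals (16 of 30) lie wholly above their mark and grey ones (14) reach it.

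Other genes of the pathway were read from 2 further lists. Of 30 regulators and cofactors of p53, 28 were tested in the mean coculture comparison, 11 above 0 and 17 below, with a median of -0.02. None was called, and at an unadjusted p under 0.05, 2 were higher (7.09% of all genes) and 1 lower (4.63%). Cdkn2a, whose Arf product blocks Mdm2, gave 245 and 311 in the shTop1 mixes, 389 and 427 in the shTop1 cocultures, 300 and 296 in the shp53 mixes, and 373 and 330 in the shp53 cocultures. All its cocultures lay above all its mixes, by 0.38 ± 0.10 (SE; limma, adjusted p = 0.345). Usp10, a deubiquitinase that stabilises p53, differed by -0.21 (adjusted p = 0.375, limma), and Banp, a p53-binding nuclear matrix protein, by 0.16 (adjusted p = 0.415, limma). Cdkn2a and Banp were the 2 of 28 with all cocultures above all mixes, against 5.75% of all genes. Usp10 was among the 2 with all cocultures below, against 3.35% of all genes.

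Of 30 further p53 targets outside the list, 24 were tested, 14 above 0 and 10 below, with a median of 0.05 and none called. At an unadjusted p under 0.05, 2 were higher (7.09% of all genes) and 3 lower (4.63%). Those with the smallest p were Igfbp3, a secreted binding protein of insulin-like growth factors, at -0.32, Ddit4, an inhibitor of mTOR signalling, at 0.29, and Sesn2, a stress-induced sestrin that also restrains mTOR, at -0.40 (limma, adjusted p = 0.357, 0.357 and 0.372). Sesn2 and Ddit4, which both restrain mTOR, thus stood on opposite sides of 0.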

How the data were processed

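RNA from 8 samples (4 groups of 2) was measured on Affymetrix arrays, labelled by the standard Affymetrix protocol per the labels. The deposited intensities are linear, with 1 value for a probe set in each array. Without the highest and lowest 2%, their mean was about 500.003 on every array, from which it was read that the authors had scaled each array to the same trimmed mean. The sources used here name no tool for this. Precision is limited by the small number of arrays.

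Probe sets with 1 symbol in GEO's platform annotation (34958, against 932 with several and 9211 with none) were named, and symbols were updated through gene identifiers. Intensities were quantile normalised and taken as log2(signal + 16). Where a gene had several probe sets, the one with the highest mean stood for it. Genes whose mean fell under the array-wide 30th percentile, a signal of 22.1, were left out.

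A mean for each group was estimated from the 8 arrays in limma 3.58.1 in R 4.3.3 (lmFit, contrasts and eBayes without a trend), leaving 4 residual degrees of freedom. P-values are two-sided and Benjamini-Hochberg adjusted over all 14267 genes, with a threshold of 0.05. The fit was tested on simulated data. The members, the other lists and the named genes (members with an unadjusted p under 0.05 or the 3 smallest, and the 3 smallest of each other list) were chosen with earlier results of these data known. Groups that do not overlap are those in which every array of one exceeds every array of the other. Replicate numbers gave no sign of pairing: correlations of replicate differences between groups were -0.01 to 0.05. The labels do not say whether the mixes share mock RNA, and the fit treats the arrays as independent. Alternatives covered scaling, filters, pseudocounts, probe set choice, variances, a replicate block and leaving out each array. A test of Trp53 probe sets was planned and not run, since none was named.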

Additional observations from a re-analysis of the deposited data

Results flagged for a closer look

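Of the 30 p53 targets tested, 2 had coculture differences of opposite sign in the 2 knockdowns, with no overlap between coculture and mix in either. For Mdm4 the coculture effect with the p53 hairpin exceeded that with the Top1 hairpin by 0.42 (log2 scale; limma, adjusted p = 1.00), and leaving out 1 array gave 0.35 to 0.48. For Ppm1d the same difference was -0.29 (limma, adjusted p = 1.00), and leaving out 1 array gave -0.38 to -0.20. Over all genes tested, 507 of 14267 (3.55%) showed opposite directions without overlap. The next probe set of Ppm1d did not repeat the pattern. The next probe set of Mdm4 had the same signs (-0.21 with the Top1 hairpin and 0.02 with the p53 hairpin), with overlap in the shp53 samples. Another, dimmer probe set of Mdm4 also had these signs (-0.14 with the Top1 hairpin and 0.69 with the p53 hairpin), with overlap in the shTop1 samples.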

How the results depend on the processing

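No p53 target passed the adjusted threshold under any alternative run, in any of the 7 comparisons, and the smallest adjusted p of a named target over all settings was 0.0749 (Cdkn1a). Of 540 values of the 30 targets in the mean coculture comparison under the alternatives, 522 kept their direction and 18 reversed, none of them called.

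The number of targets with an unadjusted p under 0.05 in the mean coculture comparison (3) was 5 with the 50th percentile filter, 5 with probe sets averaged, 6 of 56 with every probe set by itself, 5 with trended and robust variances and 5 with a pseudocount of 1, and 3 to 5 when 1 array was left out. For shp53 minus shTop1 over both conditions (1) it was 0 with median centring, 0 with probe sets averaged, 3 with every probe set by itself, 2 with trended and robust variances, and 0 to 2 when 1 array was left out. The targets' median in the mean coculture comparison was 0.032 with probe sets averaged, and 0.042 to 0.14 when 1 array was left out. With median centring it was -0.053 for shp53 minus shTop1 over both conditions, -0.045 in the mixes and -0.026 in the cocultures. Leaving out 1 array gave medians of 0.012 to 0.10 for the shTop1 coculture effect, 0.0044 to 0.16 for the shp53 coculture effect and -0.042 to 0.029 for their difference. It gave -0.0011 to 0.065 for shp53 minus shTop1 over both conditions, 0.0032 to 0.052 in the mixes and -0.027 to 0.073 in the cocultures. Over all genes, trended and robust variances called 31 genes in the mean coculture comparison, 3 with the Top1 hairpin and 1 with the p53 hairpin.

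Single targets reversed as follows. With median centring, the mean coculture difference was 0.065 for Ccng1, 0.056 for Ei24 and 0.036 for Apaf1, and with the authors' scaling alone 0.0075 for Ccng1. With probe sets averaged it was 0.014 for Ccng1, -0.081 for Polk and -0.18 for Rrm2b. With that setting the shTop1 coculture effect was -0.072 for Ercc5, -0.024 for Ppm1d and 0.031 for Mdm4, and shp53 minus shTop1 in the mixes was -0.22 for Ercc5. The averages of Ercc5 take in a probe set below the limit on dim signals. Leaving out 1 array gave ranges across 0 for Trp53inp1 (-0.016 to 0.15), Ccng1 (-0.062 to 0.035), Eda2r (-0.12 to 0.020), Ei24 (-0.060 to 0.048), Apaf1 (-0.062 to 0.025) and Zmat3 (-0.018 to 0.12). Some values kept their sign but moved widely when 1 array was left out: Ddb2 0.043 to 0.26, Plk2 0.014 to 0.22, Ephx1 0.073 to 0.39, Dram1 0.097 to 0.34, Btg2 0.079 to 0.25 and Polk 0.0016 to 0.16. The cause was not tested.

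With the replicate number as a block, 0 targets were called and 3 had an unadjusted p under 0.05 in the mean coculture comparison, with no direction reversed. The numbers gave no sign of pairing. The planned test of Trp53 probe sets was not run, because none was named. In the mean coculture comparison, differences under about 0.21 on the log2 scale lay within the typical target's 95% interval, where the median SE was 0.09. The intervals were wider elsewhere. The targets' median SE was 0.12 within 1 knockdown or 1 condition, with 2 arrays against 2, and 0.17 for the difference of the coculture effects.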
